A study of Mus musculus with 96 samples.

Results

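Polycomb group genes encode the proteins that keep developmental genes silent through cell division and differentiation. Of the 48795 genes in the table, 9 were followed by their symbols: Sfmbt2, Sfmbt1, Ezh1, Ezh2, Eed, Suz12, Rnf2, Bmi1 and Cbx7. Sfmbt2 was selected on its own values in striatum, where its level in Q140 mice stood apart from that in wild-type mice, and the other 8 were added as its relatives and partners. The striatal Q140 values of Sfmbt2 are therefore given as a description with no test, and the comparison of Q140 with wild-type striatum supports nothing here.

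RNA was sequenced from the striatum and the cerebral cortex of 48 mice on the C57BL/6 background, all 6 months old, 8 mice (4 female, 4 male) for each of 6 genotypes. Those were Q140, Q140 Msh6+/-, Q140 Msh6-/-, Msh6+/-, Msh6-/- and wild-type. Q140 is a Huntington's disease model in which 1 copy of the mouse huntingtin gene, Htt, carries an expanded CAG repeat from conception and in every tissue, and all Q140 mice here were heterozygous. Msh6 encodes a subunit of the mismatch repair complex MutS-alpha, and the Q140 Msh6+/- and Q140 Msh6-/- mice let the Q140 effect be measured in animals with 1 or no intact copy of it; the labels do not say which bases were deleted. Libraries were of whole tissue, so fewer cells of a type and less RNA per cell cannot be told apart in any value below.

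Polycomb proteins work in complexes. Polycomb repressive complex 2 (PRC2), built on Ezh1 or Ezh2 with Eed and Suz12, methylates lysine 27 of histone H3. Polycomb repressive complex 1 (PRC1), built on Rnf2 with a Pcgf protein such as Bmi1 and, in its canonical form, a Cbx reader such as Cbx7, binds that mark and ubiquitinates histone H2A. In Drosophila another complex, PhoRC, joins the protein Sfmbt to the DNA-binding protein Pho. Sfmbt1 and Sfmbt2 are the mammalian relatives of Sfmbt, with MBT repeats that bind methylated histone tails, and Yy1 is the relative of Pho. In adult neurons, PRC2 holds genes of other lineages silent.

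Sfmbt2 (ENSMUSG00000061186) lies on chromosome 2 at 10370510 to 10595253 on the plus strand of GRCm38, and RefSeq lists a pair of start sites for it. The promoters of both, of its relative Sfmbt1 and of Bmi1 are shown because Sfmbt2 and Bmi1 had higher levels and Sfmbt1 lower levels in the Q140 striata described below. Each runs from 250 bases before to 50 bases after the start, is read 5′ to 3′ on the gene's plus strand from RefSeq's GRCm38.p6, and has its CG dinucleotides, the bases that DNA methylation acts on, in capitals.
Sfmbt2 first promoter (chr2:10370201-10370500): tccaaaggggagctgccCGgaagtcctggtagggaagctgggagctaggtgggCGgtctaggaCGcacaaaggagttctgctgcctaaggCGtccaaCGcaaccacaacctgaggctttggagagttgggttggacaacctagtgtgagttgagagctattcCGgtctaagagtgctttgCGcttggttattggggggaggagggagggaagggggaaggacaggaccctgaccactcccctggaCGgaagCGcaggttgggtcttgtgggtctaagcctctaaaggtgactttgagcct
Sfmbt2 second promoter (chr2:10372186-10372485): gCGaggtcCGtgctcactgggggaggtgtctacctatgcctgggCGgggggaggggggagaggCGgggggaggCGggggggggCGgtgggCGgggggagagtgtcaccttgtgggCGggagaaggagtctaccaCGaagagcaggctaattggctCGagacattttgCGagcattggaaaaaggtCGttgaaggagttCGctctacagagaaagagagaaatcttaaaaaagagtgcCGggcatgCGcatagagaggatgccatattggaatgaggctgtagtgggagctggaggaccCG
Sfmbt1 promoter (chr14:30714917-30715216): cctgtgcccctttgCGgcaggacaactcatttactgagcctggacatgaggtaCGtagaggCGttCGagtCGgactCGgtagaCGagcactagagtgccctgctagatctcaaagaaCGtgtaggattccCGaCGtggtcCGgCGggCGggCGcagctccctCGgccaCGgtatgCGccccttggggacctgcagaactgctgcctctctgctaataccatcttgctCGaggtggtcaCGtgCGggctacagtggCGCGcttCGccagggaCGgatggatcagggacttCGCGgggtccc
Bmi1 promoter (chr2:18676768-18677067): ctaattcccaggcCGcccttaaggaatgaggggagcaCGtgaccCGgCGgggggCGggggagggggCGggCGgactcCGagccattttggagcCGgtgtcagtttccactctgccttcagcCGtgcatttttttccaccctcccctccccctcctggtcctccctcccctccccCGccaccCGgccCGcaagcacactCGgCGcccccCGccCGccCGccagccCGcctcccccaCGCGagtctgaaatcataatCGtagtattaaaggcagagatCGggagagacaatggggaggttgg
The first Sfmbt2 promoter held 9 CG dinucleotides and the second 16. Those were the lowest counts among the 10 promoters matched for the 9 genes; Sfmbt1 had 26, Bmi1 had 23 and the others had 17 (Eed) to 41 (Suz12), with Ezh1 at 23, Rnf2 at 30, Ezh2 at 31 and Cbx7 at 33. Over all 32851 promoters in the table, the lower quartile, median and upper quartile were 3, 7 and 20. The core of the Yy1 motif, GCCATNTT, searched on both strands, was found in 2 of the 10 promoters, the second of Sfmbt2 and that of Bmi1, against 6.05% of all promoters. The motif was absent from the promoter of Rnf2, which rose as much as Bmi1 in the Q140 striata described below. It was also absent from that of Cbx7, which fell, and neither promoter is shown. No other motif was searched, and neither DNA methylation nor factor binding was measured in these mice.

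Library totals ran from 12.4 to 22.9 M counts. Msh6 itself had 6.86 to 11.0 CPM (counts scaled to library size) in the 16 striata labelled Msh6-/-, 11.9 to 15.4 CPM in the 16 labelled Msh6+/- and 14.4 to 19.9 CPM in the other 16. Reads of Msh6 thus remained in every library labelled Msh6-/-, and no Msh6-/- striatum reached the level of any Msh6+/- striatum. Striatal projection neuron markers (9 genes, none at 0 in every library of a group) were lower in Q140 striatum, where their summed level was 6088 to 6935 CPM in the 24 Q140 mice, against 9532 to 12361 CPM in the 24 others. Of these 9 markers, 8 fell and 1 rose in the mean Q140 effect defined below, in which 46.0% of all genes passed the test. Of the tested markers of other cells, 5 of 5 for oligodendrocytes, 1 of 3 for their precursors, 4 of 4 for endothelium, 4 of 5 for microglia and 3 of 6 for astrocytes fell and none rose. Of cortical glutamatergic neuron markers 2 of 4 rose, as did 3 of 3 for choroid plexus, and 0 of 5 interneuron and 0 of 4 dividing cell markers passed. Choroid plexus markers summed to 2704 CPM in Q140 Msh6-/- mouse 21-3, beside medians of 31.4 CPM in its group and 24.7 CPM in Msh6-/- striata. The medians were 29.2 CPM in Q140 Msh6+/- striata and 27.3 CPM in Msh6+/- striata. The part of these shifts in the results below was not tested.

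In striatum, Sfmbt2 stood apart in every Q140 mouse. Q140 striata had 7.44 CPM at the lowest, 9.47 at the median and 12.8 at the highest, against 1.27, 2.47 and 3.40 CPM in wild-type striata. In Q140 Msh6+/- striata the values were 8.15, 8.68 and 10.7 CPM, against 1.87, 2.46 and 3.36 CPM in Msh6+/- striata. Q140 Msh6-/- striata had 8.20, 9.79 and 11.1 CPM, against 1.66, 2.33 and 3.41 CPM in Msh6-/- striata. The lowest of the 24 Q140 mice was thus above the highest of the 24 mice without Q140, with no overlap in any pair of genotypes. How many of all genes separate in this way was not counted, here or for the genes below. On the log2 scale the difference was 1.98 ± 0.12 (SE, n = 8 against 8) in mice with intact Msh6, 1.82 ± 0.12 in Msh6+/- mice and 2.03 ± 0.12 in Msh6-/- mice, and the ratio of mean CPM was 3.95, 3.53 and 4.09. These rested on raw counts of 112 to 247 per library in Q140 striata, against 24 to 67 in the others. Q140 females averaged 9.43 ± 1.40 CPM and Q140 males 9.79 ± 2.21 CPM (SD, n = 4 each). On the log2(FPKM + 1) scale the mean of the Msh6+/- and Msh6-/- differences was 0.70, against 1.92 from the counts, since that scale compresses a gene with so low a level.

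**Figure D1:**
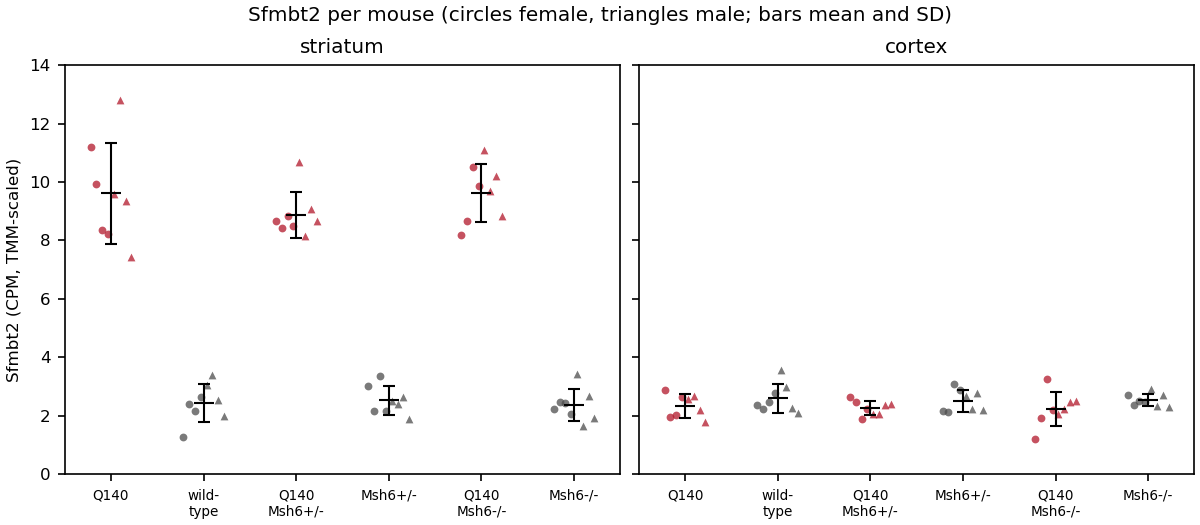
Sfmbt2 level (CPM) in each of the 48 mice by genotype, striatum on the left and cortex on the right, with circles for females, triangles for males and bars for the mean ± SD of 8 mice. In striatum the 24 Q140 mice sit between 7.44 and 12.8 CPM and the 24 others between 1.27 and 3.41 CPM, and in cortex the groups overlap.

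In cortex of the same mice the genotypes overlapped. Sfmbt2 had 1.77, 2.38 and 2.88 CPM (lowest, median, highest) in Q140 cortices, against 2.09, 2.41 and 3.55 CPM in wild-type cortices. Q140 Msh6+/- cortices had 1.88, 2.29 and 2.62 CPM, against 2.12, 2.44 and 3.09 CPM in Msh6+/- cortices, and Q140 Msh6-/- cortices had 1.21, 2.21 and 3.27 CPM, against 2.30, 2.49 and 2.90 CPM in Msh6-/- cortices. No pair of genotypes was separated, while 9 of the 24 Q140 cortices were below all 24 without Q140 and 0 were above them. The mean Q140 effect, here the average of the log2 fold change of Q140 Msh6+/- over Msh6+/- and of Q140 Msh6-/- over Msh6-/- (16 mice against 16), was -0.16 ± 0.09 in cortex, with a 95% interval of -0.34 to 0.01 and an adjusted p of 0.427 by edgeR's quasi-likelihood test with Benjamini-Hochberg adjustment over all genes. Genes with an adjusted p below 0.05 are called higher or lower throughout. Within single mice, the level in striatum divided by that in cortex was 3.13 to 5.13 in Q140 mice, 3.32 to 5.20 in Q140 Msh6+/- mice and 3.21 to 6.77 in Q140 Msh6-/- mice, against 0.537 to 1.15 in wild-type, 0.755 to 1.40 in Msh6+/- and 0.714 to 1.17 in Msh6-/- mice. The difference between tissues in the mean Q140 effect was 2.09 ± 0.13 on the log2 scale.

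Sfmbt1, the other mammalian relative of Sfmbt, fell in striatum in both Q140 genotypes with reduced Msh6. It had 25.3, 27.7 and 29.8 CPM (lowest, median, highest) in Q140 Msh6+/- striata, against 30.8, 32.8 and 37.9 CPM in Msh6+/- striata. In Q140 Msh6-/- striata it had 27.3, 30.0 and 31.2 CPM, against 31.1, 33.4 and 35.0 CPM in Msh6-/- striata. No value overlapped in the first pair, and in the second the ranges overlapped between 31.1 and 31.2 CPM. The fold change was -0.27 ± 0.05 in Msh6+/- mice (adjusted p = 1.08e-05) and -0.17 ± 0.05 in Msh6-/- mice (adjusted p = 0.00383), and the mean Q140 effect was -0.22 ± 0.03 (adjusted p = 2.86e-07). The adjusted p in Msh6-/- mice ran from 0.00141 to 0.184 over the alternatives, and the call was lost in males alone and on every FPKM scale. In mice with intact Msh6, Q140 against wild-type, Sfmbt1 differed by -0.11 ± 0.05, given as a description since the choice was made on that comparison. Of 24 Q140 striata, 13 were below every one of the 24 striata without Q140, a count not made over all genes. Sfmbt1 remained the more abundant of the pair. Per gene length, as FPKM (counts scaled by gene length and library total), Sfmbt2 averaged 1.09 FPKM in Q140 striatum and 0.262 FPKM in wild-type striatum, and Sfmbt1 averaged 3.58 FPKM in Q140 striatum and 3.68 FPKM in wild-type striatum.

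Neither catalytic subunit of PRC2 passed the test on the counts. Ezh1, the methyltransferase common in non-dividing cells, had 77.1, 81.1 and 86.7 CPM (lowest, median, highest) in the 24 Q140 striata, against 75.2, 81.0 and 86.5 CPM in the 24 others, and its mean Q140 effect was 0.01 ± 0.02 (95% interval -0.03 to 0.04, adjusted p = 0.832). On the log2(FPKM + 0.1) scale, which has no adjustment for library composition, Ezh1 was called higher at 0.07 (adjusted p = 0.00120; 0.00118 to 1.00 over the alternatives). Ezh2, the methyltransferase of dividing cells and progenitors, had 8.31, 9.79 and 11.7 CPM in Q140 striata, against 7.58, 9.97 and 12.4 CPM in the others, and its mean Q140 effect was 0.02 ± 0.06 (interval -0.11 to 0.14, adjusted p = 0.833). For both genes the ranges of the Q140 mice and the others coincided over most of their width.

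The PRC2 core subunits Eed and Suz12 rose by small amounts in the mean Q140 effect. In mice with intact Msh6, Q140 against wild-type, the differences were 0.02 ± 0.06 for Eed and 0.04 ± 0.04 for Suz12, given as a description. Eed, the subunit that binds methylated lysine 27, had 15.5, 16.4 and 17.5 CPM in Q140 Msh6+/- striata, against 12.8, 15.3 and 17.4 CPM in Msh6+/- striata; in Q140 Msh6-/- striata it had 14.6, 15.8 and 17.4 CPM, against 12.4, 13.9 and 16.6 CPM in Msh6-/- striata. Its mean Q140 effect was 0.14 ± 0.04 (adjusted p = 0.00279). Over 12 alternatives its adjusted p ran from 1.45e-05 to 0.0679, the highest in females alone (0.13). Suz12, the scaffold of the complex, had 42.8, 44.9 and 47.3 CPM in Q140 Msh6+/- striata, against 38.4, 42.7 and 46.3 CPM in Msh6+/- striata; in Q140 Msh6-/- striata it had 42.9, 44.4 and 46.8 CPM, against 38.5, 42.3 and 44.0 CPM in Msh6-/- striata. Its mean Q140 effect was 0.09 ± 0.03 (adjusted p = 0.00228), and its adjusted p ran from 1.81e-06 to 0.205 over the alternatives, the highest in males alone (0.07). The groups overlapped for both genes, and neither was called on the counts in the Msh6+/- pair alone. On the log2(FPKM + 0.1) scale both were called higher in that pair, at 0.17 for Eed and 0.14 for Suz12.

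In PRC1, the ubiquitin ligase and its Pcgf partner rose while the chromatin reader fell. Rnf2, also called RING1B, the E3 ligase for histone H2A, had 22.0, 26.3 and 28.3 CPM in Q140 Msh6+/- striata, against 21.9, 22.9 and 24.1 CPM in Msh6+/- striata. In Q140 Msh6-/- striata it had 24.4, 26.3 and 28.5 CPM, against 18.8, 21.8 and 24.1 CPM in Msh6-/- striata, with no overlap. Its mean Q140 effect was 0.23 ± 0.03 (adjusted p = 2.94e-08). Of 24 Q140 striata, 19 were above all 24 without Q140, a count not made over all genes.

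Bmi1 (Pcgf4), which stimulates that ligase and is known for its role in stem cell renewal, moved by the same size. It had 49.9, 54.0 and 60.1 CPM in Q140 Msh6+/- striata, against 43.0, 47.3 and 48.9 CPM in Msh6+/- striata. In Q140 Msh6-/- striata it had 51.9, 54.2 and 58.8 CPM, against 43.8, 48.3 and 49.5 CPM in Msh6-/- striata. There was no overlap in either pair, though how many of all genes separate so was not counted. The mean Q140 effect was 0.23 ± 0.03 (adjusted p = 3.14e-10). Cbx7, which reads methylated lysine 27, had 75.5, 79.9 and 87.5 CPM in Q140 Msh6+/- striata, against 86.1, 92.4 and 99.1 CPM in Msh6+/- striata. It had 74.4, 82.4 and 85.9 CPM in Q140 Msh6-/- striata, against 88.4, 90.0 and 95.3 CPM in Msh6-/- striata, with no overlap. Its mean Q140 effect was -0.17 ± 0.02 (adjusted p = 2.55e-10).

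**Figure D2:**
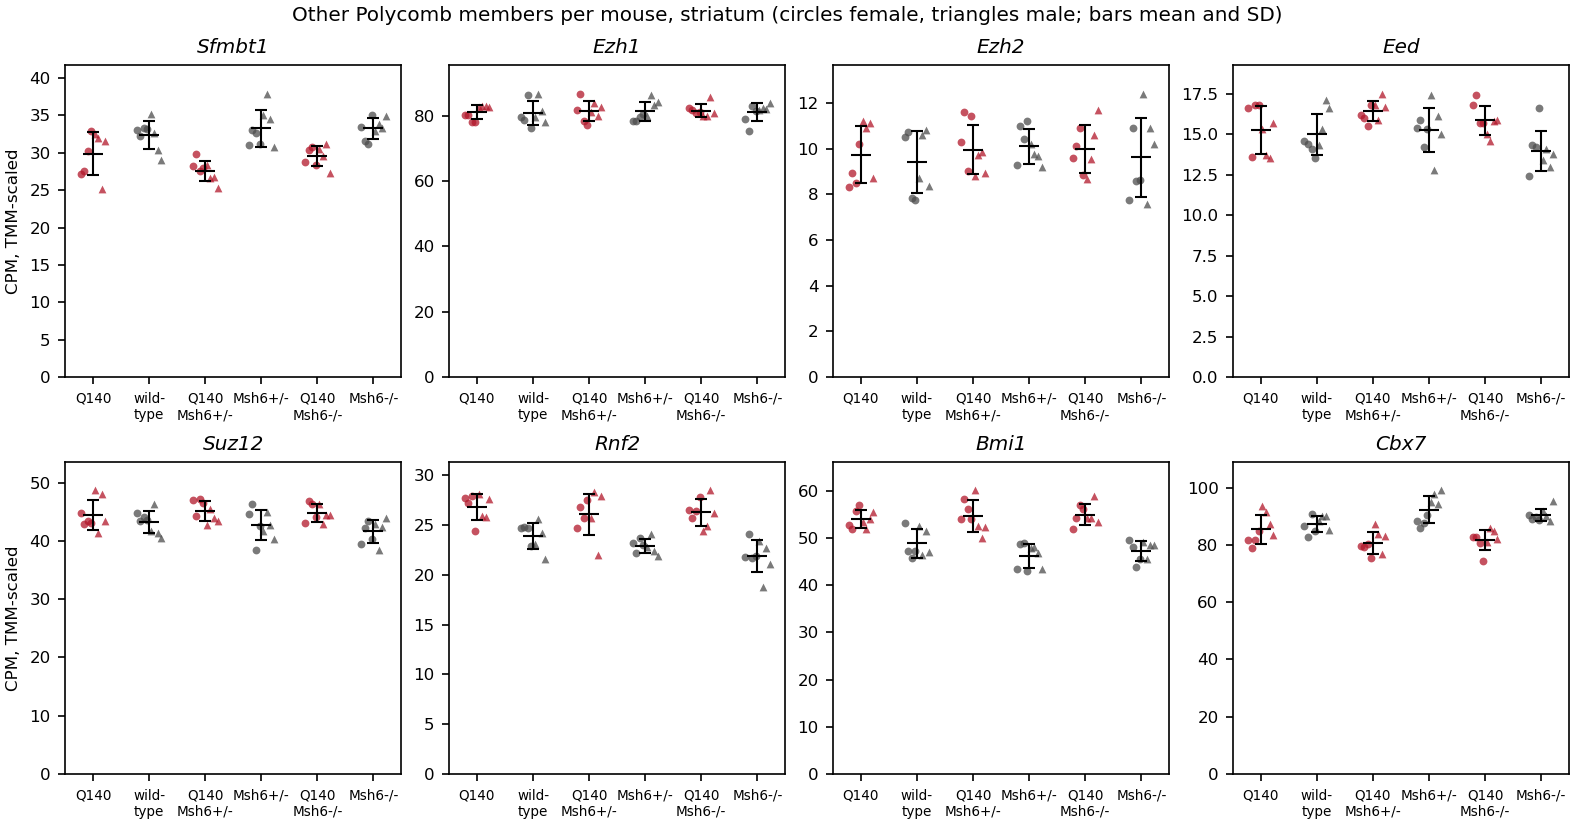
Striatal level (CPM, axes from 0) of the other 8 genes in each mouse by genotype, with bars for the mean ± SD of 8 mice. Rnf2 and Bmi1 sit higher in every Q140 genotype, and Sfmbt1 and Cbx7 lower in those with reduced Msh6. In mice with intact Msh6 the log2 differences of Sfmbt1 and Cbx7 are -0.11 and -0.03. The groups of Ezh1 and Ezh2 overlap throughout. For no gene was the Q140 effect called different between Msh6 genotypes.

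Without Sfmbt2, which was chosen on its striatal values, 6 of the other 8 genes passed the test in the mean Q140 effect in striatum, where 46.0% of all 17503 genes did; 4 were higher and 2 lower. The median log2 change of all 9, a description since it includes Sfmbt2, was 0.09, against 0.02 for all genes. Against 31.2% of all genes, 4 of the 8 genes other than Sfmbt2 were called in the Msh6+/- pair (Rnf2 and Bmi1 higher, Sfmbt1 and Cbx7 lower). Against 33.0% in the Msh6-/- pair, 6 of the 8 were called, with Eed and Suz12 added on the higher side. Restricting the fit to males ended the call of Rnf2 in the Msh6+/- pair and those of Sfmbt1, Eed and Suz12 in the Msh6-/- pair, and restricting it to females ended those of Eed and Suz12; leaving out the filter also ended that of Suz12. In Q140 against wild-type striatum, 2 of the 8 were called (Rnf2 and Bmi1) beside 29.7% of all genes. The choice was made on that comparison, so its count is a description and supports nothing here. Over all genes the mean Q140 effect counted 4413 genes higher and 3633 lower (54.8% of calls higher), and 7183 higher and 2300 lower (75.7%) on the log2(FPKM + 0.1) scale.

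**Figure D3:**
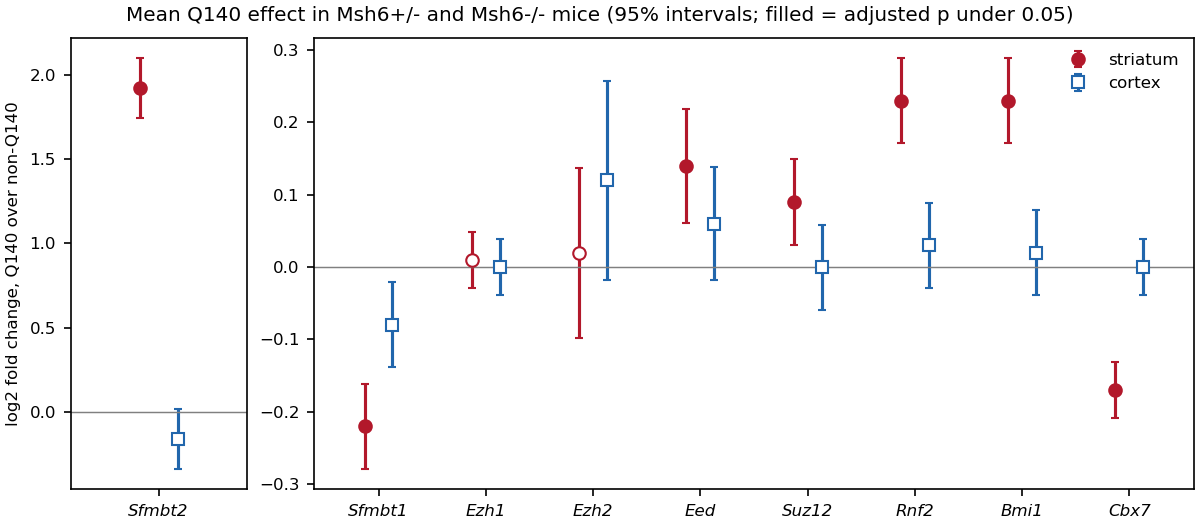
Mean Q140 effect (log2 fold change with its 95% interval, Q140 over matched mice without Q140, Msh6+/- and Msh6-/- pairs averaged) for each gene, striatum as red circles and cortex as blue squares, filled where the adjusted p is below 0.05; Sfmbt2 has its own axis. Striatal values run from -0.22 for Sfmbt1 to 0.23 for Rnf2 and Bmi1 beside 1.92 for Sfmbt2, and no cortical value is filled. The striatal marker of Sfmbt2 is a description and its fill no test, since the gene was chosen on its striatal values.

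In cortex none of the 9 genes was called in any Q140 comparison by edgeR, or by DESeq2. The background there was also low, at 0.0170% of 17622 genes in mice with intact Msh6, 0.193% in Msh6+/- mice, 0.136% in Msh6-/- mice and 1.00% in the mean Q140 effect. At an unadjusted p under 0.05, 1 of the 9 passed in the mean Q140 effect, Sfmbt1, at -0.08 ± 0.03 (adjusted p = 0.135). At that unadjusted threshold, 2282 of the 17622 genes passed. The mean Q140 effect in cortex was 0.02 ± 0.03 for Bmi1, 0.03 ± 0.03 for Rnf2, 0.06 ± 0.04 for Eed and 0.12 ± 0.07 for Ezh2. Rnf2 in Q140 Msh6+/- cortices ran from 22.9 to 31.8 CPM, against 25.7 to 32.0 CPM in Msh6+/- cortices.

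Whether the Q140 effect differed between striatum and cortex was tested in a fit of all 96 libraries, where 30.3% of 18440 genes passed. Of the 8 genes other than Sfmbt2, whose difference is a description only, 5 did. The Q140 effect was higher in striatum by 0.21 ± 0.04 for Bmi1 (adjusted p = 3.12e-06) and by 0.20 ± 0.05 for Rnf2 (adjusted p = 4.05e-04). It was lower in striatum for Cbx7, at -0.16 ± 0.03 (adjusted p = 4.21e-06). Sfmbt1 differed by -0.13 ± 0.04 (adjusted p = 0.00960), a call absent on the log2(FPKM + 0.1) scale (-0.08, adjusted p = 0.159; 0.00180 to 0.377 over the alternatives, the highest in females alone). Suz12 differed by 0.10 ± 0.04 (adjusted p = 0.0234), a call lost by DESeq2, with RLE scaling, without the filter, in either sex alone and with only the groups compared. It differed by 0.07 (adjusted p = 0.115; 2.86e-04 to 0.881 over the alternatives) without the striatal library of Q140 Msh6-/- mouse 21-3, which had 2704 CPM of choroid plexus markers. Restricting the fit to males ended the call of Rnf2 (0.14, adjusted p = 0.212; 1.34e-05 to 0.212 over the alternatives). Over all genes this comparison had 3149 higher and 2443 lower (56.3% higher), and 5154 and 1745 (74.7%) on the log2(FPKM + 0.1) scale.

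None of the 9 genes was called between Msh6 genotypes. In striatum the Msh6-/- genotype gave calls in 0.177% of genes among Q140 mice and 0.0971% among mice without Q140, and the Msh6+/- genotype in 0.00571% and 0.0114%. In cortex the shares were 0.153% and 0.131% for Msh6-/-, and 0.0113% and 0.00567% for Msh6+/-. No member was among them by edgeR or by DESeq2. At an unadjusted p under 0.05, at most 2 of the 9 passed in any of these comparisons. Over all genes, 753 to 1121 of 17503 did so in striatum and 581 to 1388 of 17622 in cortex. Rnf2 had 18.8, 21.8 and 24.1 CPM in Msh6-/- striata, against 21.6, 24.4 and 25.6 CPM in wild-type striata, a fold change of -0.13 ± 0.04 (adjusted p = 0.595).

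The size of the Q140 effect was also compared between Msh6 genotypes. By edgeR, 0% of all genes passed for Msh6-/- or for Msh6+/- in striatum, where 876 and 836 had an unadjusted p under 0.05 and DESeq2 called 1 and 0. In cortex the share was likewise 0% for both, with 692 and 911 genes at an unadjusted p under 0.05 and 0 and 1 by DESeq2. For Sfmbt2 the striatal effect differed by 0.05 ± 0.18 with Msh6-/- and by -0.16 ± 0.18 with Msh6+/-, beside an effect of 1.98. Both values include the Q140 and wild-type striata that Sfmbt2 was chosen on. They are thus a description, and no conclusion on a change or its absence is drawn. Cbx7 came nearest to a call, with a Q140 effect of -0.19 ± 0.03 in Msh6+/- mice and -0.03 ± 0.03 in mice with intact Msh6. That difference was -0.16 ± 0.04 (unadjusted p = 1.18e-04, adjusted p = 0.820).

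Levels of the genes relative to each other were compared per length, as FPKM. In wild-type striatum Cbx7 averaged 13.2, Bmi1 12.1, Ezh1 10.7, Suz12 8.60, Rnf2 5.70, Eed 3.85, Sfmbt1 3.68, Ezh2 1.38 and Sfmbt2 0.262 FPKM (n = 8). Cbx7 and Bmi1 overlapped in their ranges over mice, as did Bmi1 and Ezh1, and Eed and Sfmbt1; every other neighbour in this order was separated. Wild-type cortex had the order Cbx7 (11.6 FPKM), Ezh1 (10.8), Bmi1 (10.1), Suz12 (7.43), Rnf2 (7.06), Sfmbt1 (5.30), Eed (3.58), Ezh2 (0.706) and Sfmbt2 (0.279), with overlap among the first 3 and between Suz12 and Rnf2. Ezh1 thus stood above Ezh2, and Sfmbt1 above Sfmbt2, in both tissues. In Q140 striatum Sfmbt2 averaged 1.09 FPKM and Ezh2 1.51 FPKM.

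**Figure D4:**
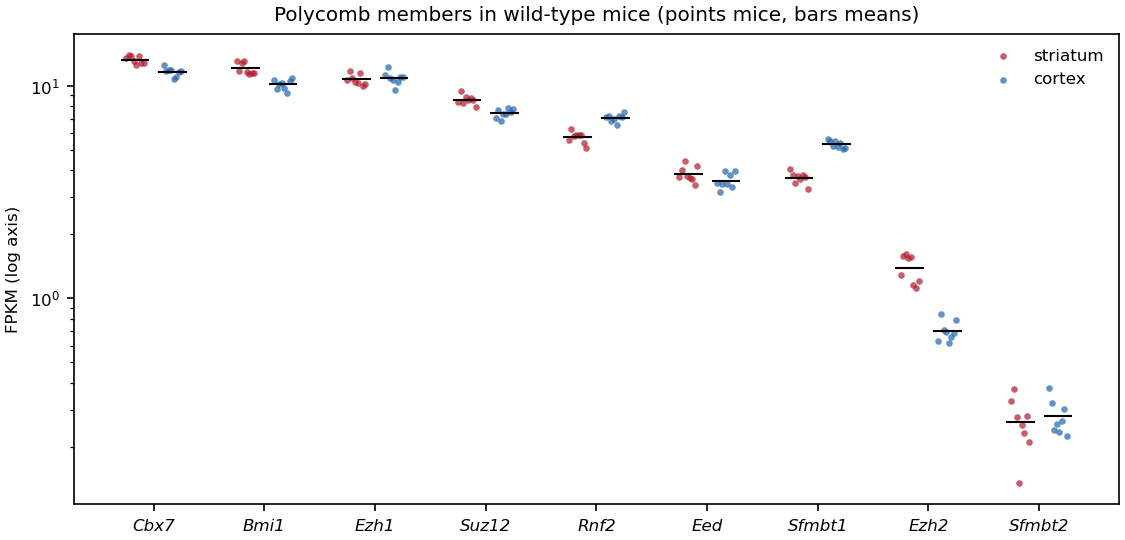
Level per length (FPKM, log axis) of the 9 genes in each wild-type mouse, striatum beside cortex. Means run from 0.262 FPKM for Sfmbt2 to 13.2 FPKM for Cbx7 in striatum, and Ezh2 shows the widest gap between tissues.

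Between tissues, wild-type mice differed in 6 of the 9 genes, where 72.4% of all genes did. Ezh2 was higher in striatum, with 9.41 ± 1.37 CPM in striatum and 4.79 ± 0.508 CPM in cortex (SD, n = 8 each), a log2 difference of 0.97 ± 0.09 (adjusted p = 2.06e-16). Dividing cell markers (4 genes, none at 0 in every library of a group) summed to 0.572 to 10.4 CPM in wild-type striata and to at most 2.53 CPM in any cortex; their part in the Ezh2 difference was not tested. Bmi1 (0.26 ± 0.04), Suz12 (0.21 ± 0.04) and Cbx7 (0.19 ± 0.03) were also higher in striatum, while Sfmbt1 (-0.52 ± 0.04) and Rnf2 (-0.31 ± 0.05) were lower. Sfmbt2 differed by -0.09 ± 0.13 (adjusted p = 0.553), with an interval of -0.35 to 0.17. In Q140 mice, the tissue values of Sfmbt1 lay at 29.9 ± 2.89 CPM in striatum and 44.0 ± 2.28 CPM in cortex.

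Beyond the 9 genes, 55 genes of the same complexes and of their opponents were listed, and 52 could be tested in striatum. In the mean Q140 effect 18 rose and 14 fell, beside the 46.0% of all genes called, with a median of 0.03 against 0.02 for all genes. On the log2(FPKM + 0.1) scale the split was 27 higher and 6 lower. None was called in cortex by edgeR or DESeq2. In the difference of Q140 effects between striatum and cortex, 13 were higher and 8 lower. The lists were made with earlier results of these data known, so their counts are no independent evidence.

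Of the 25 genes in the PRC1 list, 10 rose and 7 fell, with a median of 0.01, where 46.0% of all genes were called. Cbx8, a Cbx reader, had 14.9 ± 2.02 CPM in Q140 Msh6+/- striata and 8.42 ± 1.53 CPM in Msh6+/- striata, and 15.0 ± 2.12 CPM in Q140 Msh6-/- striata and 8.19 ± 0.949 CPM in Msh6-/- striata (SD, n = 8 each), a mean Q140 effect of 0.84 ± 0.07 (adjusted p = 8.40e-15). Pcgf6, of the non-canonical PRC1.6 complex, rose by 0.23 ± 0.05 (adjusted p = 5.05e-05), and Cbx6 fell, at -0.14 ± 0.02 (adjusted p = 3.46e-06). The Q140 effect was higher in striatum than in cortex by 0.93 ± 0.09 for Cbx8 (adjusted p = 2.44e-15).

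Cbx2 and Ring1, and the positions of Cbx6 and Cbx7, were picked out after their values were seen. Cbx2, another Cbx reader, rose by 0.21 ± 0.07 (adjusted p = 0.00864), with an adjusted p of 8.03e-04 to 0.154 over the alternatives and of 0.0754 and 0.154 in males and in females alone. Ring1, the paralogue of Rnf2, fell, at -0.11 ± 0.04 (adjusted p = 0.0264), a call lost in males alone (-0.03) and on the FPKM scales, with an adjusted p of 0.00219 to 0.789 over the alternatives. Cbx6 and Cbx7, which both fell, lie within 147 kb of each other on chromosome 15. Per length, Cbx7 stood at 12.9 and 13.0 FPKM in Q140 Msh6+/- and Q140 Msh6-/- striata, against 14.1 and 13.7 FPKM in Msh6+/- and Msh6-/- striata.

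Of the PhoRC and MBT list, 5 of 6 genes could be tested, and 1 rose and 2 fell (median 0.06). The share over all genes was 46.0%. L3mbtl3, another MBT repeat protein, rose, with 20.5 ± 0.845 CPM in Q140 Msh6+/- and 14.8 ± 1.43 CPM in Msh6+/- striata, and 22.1 ± 2.30 CPM in Q140 Msh6-/- and 15.2 ± 2.18 CPM in Msh6-/- striata (mean Q140 effect 0.51 ± 0.05, adjusted p = 3.07e-13). L3mbtl1 fell, at -0.36 ± 0.07 (adjusted p = 8.62e-05; 6.18e-06 to 0.0723 over the alternatives, the highest in females alone), as did Mbtd1, at -0.10 ± 0.03 (adjusted p = 0.00525; 0.00188 to 0.488 over the alternatives, the highest on an FPKM scale). Yy1 had a mean Q140 effect of 0.06 ± 0.03 (adjusted p = 0.108), and of 0.13 on the log2(FPKM + 0.1) scale (adjusted p = 4.69e-04; 4.66e-04 to 0.450 over the alternatives).

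Of 9 tested PRC2 accessory genes, 2 rose and 2 fell (median 0.02), beside the 46.0% of all genes called. Aebp2, which helps place PRC2 on chromatin, fell, at -0.16 ± 0.03 (adjusted p = 6.04e-07), and so did the histone chaperone Rbbp7, at -0.10 ± 0.02 (adjusted p = 1.60e-05; 9.40e-08 to 0.201 over the alternatives, the highest on an FPKM scale). Its paralogue Rbbp4 rose by 0.06 ± 0.02 (adjusted p = 0.00629; 4.59e-07 to 0.464 over the alternatives, the highest in males alone) and Mtf2 by 0.08 ± 0.03 (adjusted p = 0.0116; 8.64e-06 to 0.199 over the alternatives, with the call lost in either sex alone).

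The PR-DUB genes, whose complex removes the ubiquitin that PRC1 adds to histone H2A, had 3 of 10 higher and 3 lower (median 0.04). Over all genes 46.0% were called. Bap1, the deubiquitinase itself, fell, at -0.16 ± 0.02 (adjusted p = 1.09e-08), as did Mbd6, at -0.20 ± 0.04 (adjusted p = 7.05e-05). Ogt, the enzyme that adds O-GlcNAc, rose by 0.23 ± 0.02 (adjusted p = 3.88e-13), and Asxl3, a cofactor of Bap1, by 0.29 ± 0.06 (adjusted p = 5.24e-05; 1.17e-05 to 0.106 over the alternatives, the highest in males alone). Of the 3 genes in the list of lysine 27 demethylases (median 0.24), Kdm6b rose by 0.24 ± 0.05 (adjusted p = 2.88e-05), and Kdm6a was at -0.05 ± 0.03 (adjusted p = 0.126). Y-linked Uty, whose value rests on the males, rose by 0.24 ± 0.05 (adjusted p = 1.83e-04; 3.27e-04 to 0.844 over the alternatives, the highest without a sex term).

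**Figure D5:**
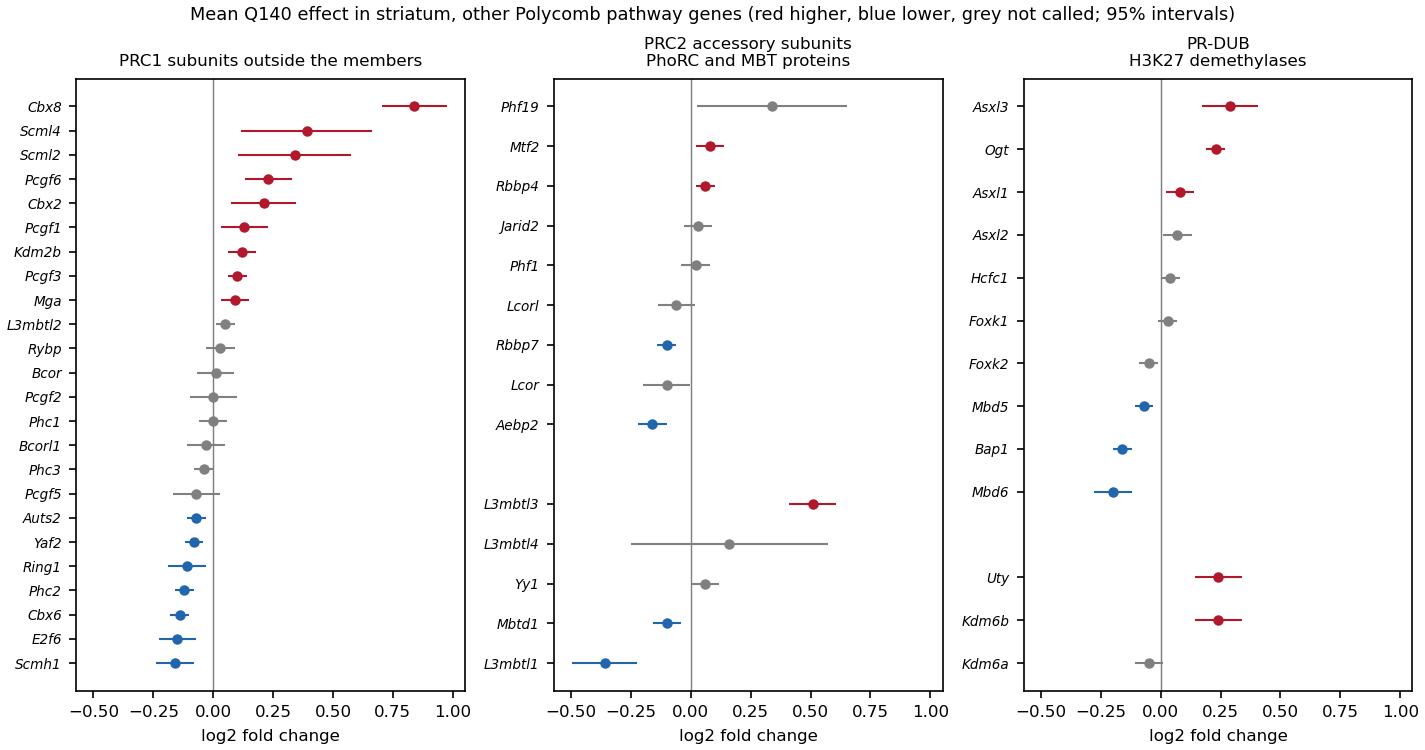
Mean Q140 effect in striatum (log2 fold change with its 95% interval) of tested genes of the Polycomb lists, each point a gene, red where called higher, blue where called lower and grey where not called. Cbx8 (0.84) and L3mbtl3 (0.51) lie far to the higher side and L3mbtl1 (-0.36) far to the lower side.

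Textbook Polycomb targets were mostly near 0. Of 28 listed, 3 passed the filter on low counts in striatum. None of the 13 Hox genes did, and in striatum each had between 0 and 7 counts summed over the 8 libraries of a genotype. Wt1, a transcription factor of kidney development, had 1.46 ± 0.707 CPM in Q140 Msh6+/- and 0.0987 ± 0.0795 CPM in Msh6+/- striata, and 1.51 ± 0.803 CPM in Q140 Msh6-/- and 0.0273 ± 0.0400 CPM in Msh6-/- striata. Onecut1 had 0.568 ± 0.307 CPM in Q140 Msh6+/- and 0.0570 ± 0.0428 CPM in Msh6+/- striata, and 0.653 ± 0.284 CPM in Q140 Msh6-/- and 0.0269 ± 0.0396 CPM in Msh6-/- striata. Both passed the filter through the Q140 groups, and both were known from earlier results, so they have no test here. Sox17 had a mean Q140 effect of -0.13 ± 0.09 (adjusted p = 0.251). Cdkn2a, the cell cycle inhibitor that Bmi1 is known to repress, was not tested and had 23 counts over the 8 Q140 Msh6+/- striata, against 12 in Msh6+/- striata, and 25 over the Q140 Msh6-/- striata, against 9 in Msh6-/- striata.

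Around Sfmbt2, 3 of 10 tested neighbours were called in the mean Q140 effect in striatum, against 46.0% of all genes. Inside the gene, on its strand, 119 miRNA genes are annotated, and 18 of them had any count, 35 counts in all over 96 libraries; such libraries are not made to capture mature miRNAs. Within 1 Mb lay 162 genes, of which 10 were tested in striatum. Itih5, at 114 kb the nearest tested gene, fell in the mean Q140 effect, at -0.16 ± 0.04 (adjusted p = 4.71e-04). Pfkfb3 at 876 kb also fell (-0.22 ± 0.06, adjusted p = 0.00347), and Atp5c1 at 290 kb rose by 0.08 ± 0.02 (adjusted p = 1.28e-04). The other 7 were not called. Among the other members, Rnf2 shares 158 bases with Trmt1l on the opposite strand (mean Q140 effect 0.09 ± 0.03, adjusted p = 0.00172), Cbx7 shares 100 bases with Apobec3 (-0.10 ± 0.08, adjusted p = 0.317) and Eed shares 261 bases with E230029C05Rik (-0.07 ± 0.08, adjusted p = 0.487). Whether the counting used strand could not be read from the labels, so the split of reads in those stretches is uncertain.

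The genes most like Sfmbt2 over genotypes and tissues were found from 10 values each, the mean log2 CPM of 5 genotypes minus wild-type in both tissues. Among 16806 genes those near it included Tdrd5 (root mean square difference 0.29), Dsg2 (0.30), Cfap206 (0.33) and Enkur (0.34). Since they were picked for likeness, their values have no test. Tdrd5 had 1.40 ± 0.171 CPM in Q140 Msh6+/- and 0.477 ± 0.209 CPM in Msh6+/- striata, and 1.26 ± 0.250 CPM in Q140 Msh6-/- and 0.380 ± 0.0715 CPM in Msh6-/- striata. Dsg2, a desmosomal cadherin, had 5.29 ± 0.549 CPM in Q140 Msh6+/- and 2.17 ± 0.725 CPM in Msh6+/- striata, and 5.74 ± 1.26 CPM in Q140 Msh6-/- and 1.54 ± 1.12 CPM in Msh6-/- striata. Cortical glutamatergic neuron markers (5 genes, none at 0 in every library of a group) summed to 3.39 CPM at the lowest and 4.00 CPM at the median of Q140 Msh6+/- striata, whose highest mouse, 17-1, was above every Msh6+/- striatum, against 3.58 to 4.67 CPM with a median of 4.19 CPM in Msh6+/- striata. They summed to 4.49 to 19.5 CPM in Q140 Msh6-/- striata, against 2.90 to 6.23 CPM in Msh6-/- striata; their part in these likenesses was not tested.

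After the mean of each genotype and sex was removed, Sfmbt2 varied over the 48 striatal libraries most like Mfsd1 (Pearson r 0.69), Gm10687 (0.63), Hsd17b11 (0.62), Ndfip1 (0.60) and Rmi1 (0.60). These libraries share depth and composition, and the values are a description over 17503 genes, where the 5th and 95th percentiles were -0.32 and 0.33. The other members ran from -0.34 (Eed) to 0.28 (Rnf2).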

How the data were processed

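Striatum and cortex of 48 mice gave 96 libraries. Per the labels' protocols, RNA was extracted with a Qiagen RNeasy kit and libraries were made with a stranded TruSeq protocol. Per the submitters' processing notes, STAR 2.7.5c, SAMtools 1.10 and HTSeq 0.12.3 were used with build GRCm38 (mm10). The authors deposited a table of raw read counts per gene and an FPKM table, in which FPKM is the count divided by 1 fixed length per gene and by the library's total. Library totals were 12.4 to 22.9 M counts, at which Sfmbt2 has 24 to 67 counts a library in striata without Q140.

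From the deposited counts, genes were kept by edgeR's filterByExpr (minimum count 10, minimum total 15), scaled by TMM and tested with edgeR 4.0.16 (R 4.3.3) by quasi-likelihood with genotype and sex as terms, per tissue; comparisons of tissues used 1 fit of 96 libraries. Adjusted p is by Benjamini-Hochberg over all genes, with 0.05 as the threshold, and SE is the fold change over the root of F. CPM values shown are TMM-scaled over all 96 libraries, so a ratio of them differs slightly from the fitted fold change. Alternatives were RLE scaling, no filter, no sex term, a term for the animal number's prefix, each sex alone, only the groups compared, 1 library left out, an adjusted p of 0.1, DESeq2 1.42.0, and limma 3.58.1 with trend on log2(FPKM + pseudocount), with pseudocounts of 0.1 and 1. The fits were tested on simulated data.

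Each animal gave a striatal and a cortical library with the same animal number in the labels. Residuals of the 2 libraries of a mouse correlated at a median r of 0.14 (-0.06 to 0.26, 48 animals), against -0.003 between mice. The numbers pair the tissues of a mouse and pair no mice across genotypes. Each mouse has its own number, and p-values measure the spread between mice.

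The 9 genes and the lists were chosen with earlier results of these data known. All 9 are named, with up to 4 genes of each list by smallest adjusted p in the mean Q140 effect in striatum, any called between Msh6 genotypes, tested genes within 1 Mb of Sfmbt2, and the 5 nearest to it by each measure of likeness. Some genes that this rule names are not reported here. Of the gene IDs, 48435 of 48795 matched GENCODE M21, used for positions. No column of the table was left out.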

Additional observations from a re-analysis of the deposited data

Results flagged for a closer look

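Among 108 sets of 8 mice (9 genes, 6 genotypes, 2 tissues), 8 had a mouse far from the other 7; chance alone flags about 1 set in 20. Sfmbt2 was highest in Q140 Msh6+/- striatum of mouse 15-1, at 10.7 CPM, where the next mouse had 9.06. Ezh1 reached 85.8 CPM in Q140 Msh6-/- striatum of mouse 24-2 (next 82.3). Eed had 16.6 CPM in Q140 Msh6+/- cortex of mouse 21-5 (next 14.8), 16.6 CPM in Msh6-/- striatum of mouse 32-1 (next 14.3) and 11.3 CPM, the lowest, in Msh6-/- cortex of mouse 26-2 (next 13.6). The cortex of Q140 Msh6+/- mouse 14-1 was lowest in its group for both Suz12, at 34.2 CPM (next 36.7), and Rnf2, at 22.9 CPM (next 28.2). Cbx7 was lowest in Q140 Msh6-/- striatum of mouse 38-1, at 74.4 CPM (next 80.6).

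For 6 genes, Sfmbt2 among them, the mean Q140 effect differed between striatum and cortex by the interaction test of the 96 libraries, where 30.3% of all genes did. The differences, striatum minus cortex on the log2 scale, were 2.09 for Sfmbt2 (chosen for its striatal values, so a description), 0.21 for Bmi1, 0.20 for Rnf2, 0.10 for Suz12, -0.13 for Sfmbt1 and -0.16 for Cbx7.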

How the results depend on the processing

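No called result changed sign under any alternative run. Of the counts of called members and list genes, 308 stayed within 1.5 times their main value and 9 did not. Member counts here include Sfmbt2, chosen on its striatal values. In Q140 against wild-type striatum, 3 of 9 members were called, against 1 in males alone and 5 under each of the 3 FPKM settings. The choice was made on that comparison, so these counts are a description. In the Msh6-/- pair 7 became 4 in males alone. List genes called in the mean Q140 effect in striatum numbered 32, against 21 in males alone and 20 in females alone; for the difference between tissues the 21 became 8 and 10. Restricting to 1 sex leaves 4 mice a group, fewer by construction. Of single genes, 3380 values kept their side of the threshold, 88 lost the call and 54 gained it.

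With a replicate block for the mouse, which pairs its tissues, 6 of 9 members were called in striatum against cortex, as without the block. In the difference of Q140 effects 6 of 9 were also called, among them Sfmbt2, chosen on its striatal values. Without the block 72.4% and 30.3% of all genes were called in these comparisons. In that difference 24 list genes were called against 21. No member call changed, and Mbtd1 (adjusted p = 0.0374), Rbbp7 (0.0479) and Sox17 (0.0460) gained one. Over all genes, the mean Q140 effect in cortex had 177 calls, 348 at an adjusted p of 0.1, 290 by DESeq2, 97, 102 and 81 under the FPKM settings, 44 in males and 9 in females; its split of 60 higher and 117 lower was 51 and 46 on the log2(FPKM + 0.1) scale. DESeq2 called 22 genes instead of 3 in Q140 against wild-type cortex and 145 instead of 34 in the Msh6+/- pair, and without mouse 21-3 the Msh6-/- effect among Q140 striata had 14 calls instead of 31. No scaling moved the median of all genes by over 0.1. Sfmbt2 in mice without Q140 rests on 24 to 67 counts a library.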
